A study of Mus musculus with 6 samples.

Results

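The acyl-CoA thioesterases of the Acot family were followed in adult mouse hippocampal precursor cells given human LDL or saline. The 10 genes are Acot1, Acot2, Acot3, Acot5, Acot7, Acot8, Acot9, Acot10, Acot11 and Acot13, found as the probes whose RefSeq accession belongs to one of these symbols. They had 13 of the 55681 probes of the array, and all 10 were among the 24225 features tested (a feature is a gene, or a transcript without a gene name). The symbols were proposed with the differences between LDL and saline on these arrays already known, so the values below describe the family and are no independent evidence about it. A gene table of the mouse lists 13 Acot genes. Of the other three, Acot4 was well above background on 0 of 6 arrays and Acot12 on 1, while Acot6, well above background on 5, was tested, with LDL minus saline at 0.05 on the log2 scale (95% interval from -0.66 to 0.76).

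The cells were dentate gyrus precursors from male C57BL6/JRj mice 8 weeks old, kept as an attached, dividing culture with EGF and bFGF at 20 ng/ml each. The 3 LDL arrays came from cultures exposed to human LDL, the cholesterol-carrying low-density lipoprotein of blood, for 48 h. The 3 saline arrays came from cultures given saline for the same time. The labels call the replicates independent experiments on different passages of the cells. The dose is given as 100 ug/ml in the treatment protocol, but the sample descriptions write another unit of volume, so it is uncertain.

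An acyl-CoA thioesterase cuts an activated fatty acid, an acyl-CoA, into the free fatty acid and coenzyme A, the reverse of what acyl-CoA synthetases do. The enzymes differ in chain length preference and in place. In the mouse, Acot1, Acot7 and Acot11 act mainly in the cytosol, Acot2, Acot9, Acot10 and Acot13 in or at mitochondria, and Acot3, Acot5 and Acot8 in peroxisomes. Acot1 to Acot6 are close relatives that arose by duplication, and in the gene table they stand together on chromosome 12 in the order Acot2, Acot1, Acot4, Acot3, Acot5, Acot6, with a long non-coding RNA gene and a pseudogene between them. Acot10 is a mouse paralog of Acot9 on another chromosome. Several members, among them Acot1 and Acot2, are known targets of the fatty acid receptor PPAR alpha in mouse liver, and Acot7 is the main thioesterase of neurons.

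Promoters of both closely related pairs are shown because their probes may share signal, while each gene has its own upstream sequence. They are the 250 bases before the RefSeq start on the build GRCm38.p6, 5′ to 3′ on the strand of the gene. Where a gene had several starts the most upstream was taken, which need not be the one used in these cells. CCAAT boxes (CCAAT, or ATTGG on the other strand) and TATA boxes (TATAAA, or TTTATA on the other strand) are in capitals. Acot2 lies at chr12:83987611-83987860 (+), Acot1 at chr12:84009252-84009501 (+), Acot9 at chrX:155262193-155262442 (+) and Acot10 at chr15:20666751-20667000 (-).
Acot2: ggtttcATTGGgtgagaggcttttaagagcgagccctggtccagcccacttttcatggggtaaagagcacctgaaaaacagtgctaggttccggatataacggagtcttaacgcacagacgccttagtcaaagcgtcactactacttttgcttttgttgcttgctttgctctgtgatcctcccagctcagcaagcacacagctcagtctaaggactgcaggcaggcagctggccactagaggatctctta
Acot1: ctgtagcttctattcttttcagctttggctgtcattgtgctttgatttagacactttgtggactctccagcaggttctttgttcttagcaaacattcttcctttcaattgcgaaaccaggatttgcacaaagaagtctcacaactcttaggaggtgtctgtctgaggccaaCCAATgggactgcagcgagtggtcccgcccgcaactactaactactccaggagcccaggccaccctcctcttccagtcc
Acot9: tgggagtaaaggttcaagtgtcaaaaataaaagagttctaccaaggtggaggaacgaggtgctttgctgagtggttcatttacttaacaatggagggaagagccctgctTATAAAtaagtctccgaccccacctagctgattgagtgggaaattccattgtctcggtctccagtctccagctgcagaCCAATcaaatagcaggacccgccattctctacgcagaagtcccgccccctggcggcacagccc
Acot10: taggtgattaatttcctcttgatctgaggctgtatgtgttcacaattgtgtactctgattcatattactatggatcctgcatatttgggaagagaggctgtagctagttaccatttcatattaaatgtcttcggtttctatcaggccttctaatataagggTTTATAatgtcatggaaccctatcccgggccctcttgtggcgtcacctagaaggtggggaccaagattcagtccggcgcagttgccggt

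Promoters of 9 of the 10 members were in the RefSeq table, with Acot13 the missing entry. A CCAAT box was found on either strand in 7 of these 9 windows, against 34.5% of the 27025 windows of all genes, and a TATA box in 2 of 9, against 13.0%. The direct repeat bound by PPAR receptors, a pair of AGGTCA with any 1 base between, was in 0 of the 9 windows and in 0.037% of all windows, and the sterol response element (TCACNCCAC) in 0 of 9 and in 1.03%. The half-site AGGTCA, which is part of that repeat, stood in the Acot5 window and in 13.8% of all windows. The antioxidant response element core (TGACNNNGC) stood in the Acot3 window and in 10.1% of all. These are matches of letters in short windows and say nothing about which factors bind.

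After LDL the 10 genes had log2 fold changes from 0.03 to 0.47, LDL minus saline, with a median of 0.16. Mitochondrial Acot2, Acot10 and Acot9 had the highest values, at 1.38-fold, 1.39-fold and 1.29-fold, and the other 7 lay between 1.02-fold and 1.15-fold. None of the 10 passed an adjusted p of 0.05 in limma, with adjusted p between 0.566 and 0.978, while 0.0124% of all features passed as higher and 0.107% as lower. At an unadjusted p under 0.05 there were 2 of 10, Acot2 and Acot9, against 2.96% of all features that were higher at that level. The LDL arrays lay wholly above the saline arrays for 3 of 10, Acot2, Acot9 and Acot13, against 5.82% of all features, and wholly below them for 0 of 10, against 8.77%. All 10 values were positive, against 43.8% of all features, whose median was -0.03. The members were chosen with this contrast known, so nothing is read from these counts. An exact permutation test of 3 arrays against 3 cannot go below p = 0.1. RNA was taken from whole cultures, so a change in how many cells express a gene and a change in the RNA per cell cannot be told apart.

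**Figure D1:**
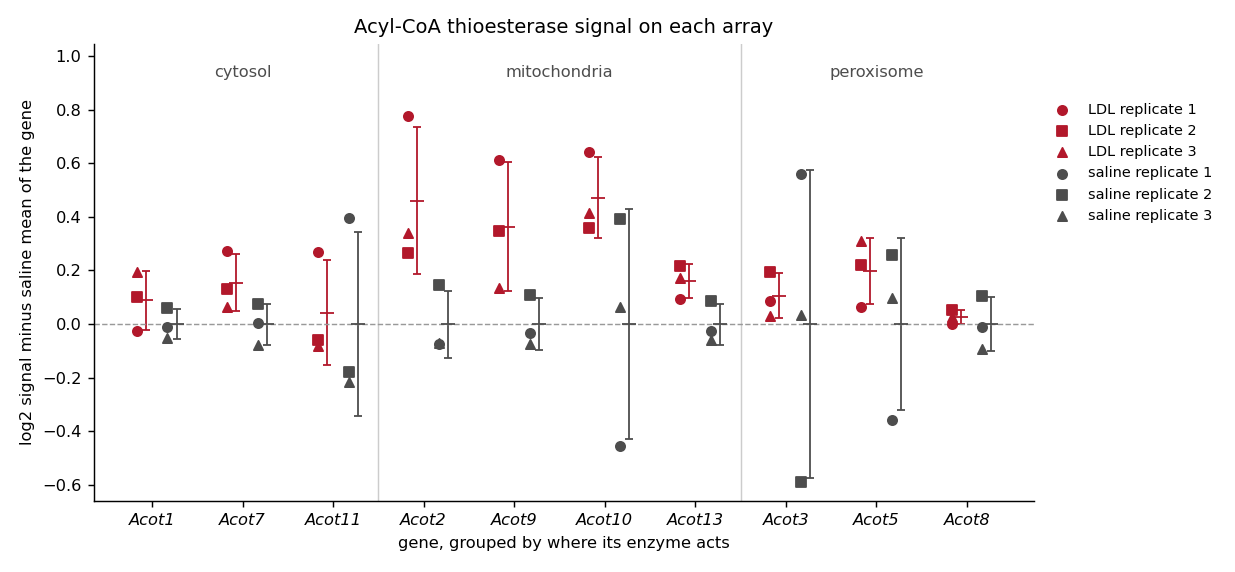
Signal of each thioesterase gene on each array, as log2 signal minus the saline mean of that gene (vertical axis), for the genes grouped by cytosol, mitochondria and peroxisome (horizontal axis). Red points are the 3 LDL arrays and grey points the 3 saline arrays, with mean and SD beside them. The LDL points lie wholly above the saline points for Acot2, Acot9 and Acot13, and the saline points of Acot3, Acot5, Acot10 and Acot11 are widely spread. A wider saline spread is not particular to these genes, since the median SD over features was 0.105 with LDL and 0.189 with saline.

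Of the 4 mitochondrial members, Acot2, Acot9 and Acot10 had the highest fold changes of the family. Acot2 hydrolyses long-chain acyl-CoA in the matrix, where fatty acids are oxidised. Its relative signal, in log2 units above or below the 75th percentile of all probes on that array, was -0.50, -1.01 and -0.93 on LDL arrays 1 to 3, against -1.35, -1.13 and -1.34 on saline arrays 1 to 3. The groups were separated by 0.12, the distance between LDL replicate 2 and saline replicate 2, and LDL replicate 1 stood highest. The means were -0.81 ± 0.28 with LDL and -1.27 ± 0.13 with saline (SD, n = 3 each), a log2 fold change of 0.46 (SE 0.16, 95% interval from 0.08 to 0.84, adjusted p = 0.566 in limma). Without LDL replicate 1 it was 0.30.

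Acot9, which acts on acyl-CoA of varied chain length in mitochondria, had 0.22, -0.04 and -0.25 with LDL, against -0.42, -0.28 and -0.46 with saline (log2 relative signal, replicates 1 to 3). LDL replicate 3 lay just above saline replicate 2, so the groups were barely separated, and LDL replicate 1 was again the highest array. The log2 fold change was 0.36 (SE 0.14, 95% interval from 0.03 to 0.70, adjusted p = 0.639 in limma), and 0.24 without LDL replicate 1. Acot10, the paralog of Acot9, had -1.29, -1.57 and -1.52 with LDL, against -2.39, -1.54 and -1.87 with saline. Here the groups overlapped, since saline replicate 2 was higher than LDL replicate 2. Its log2 fold change of 0.47 was the highest of the family and also imprecise (SE 0.22, 95% interval from -0.04 to 0.99, adjusted p = 0.709), with 0.24 without saline replicate 1 and 0.67 without saline replicate 2. Probe sequences were not used here, so it is not known how far each of these probes measures the transcript of the other gene.

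Acot13, also called Them2, is a small hotdog-fold thioesterase that associates with mitochondria. It had 4.25, 4.38 and 4.33 with LDL, against 4.13, 4.24 and 4.10 with saline (log2 relative signal). The difference was small and so was the spread, with the lowest LDL array 0.01 above the highest saline array. The log2 fold change was 0.16 (SE 0.10, 95% interval from -0.07 to 0.39, adjusted p = 0.782), and it kept to between 0.13 and 0.20 with any 1 array left out.

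The cytosolic members had smaller values. Acot1, the cytosolic twin of Acot2 next to it on chromosome 12, had 4.77, 4.90 and 4.99 with LDL, against 4.78, 4.86 and 4.75 with saline (log2 relative signal). The groups overlapped, since LDL replicate 1 was below saline replicates 1 and 2. Its log2 fold change was 0.09 (SE 0.10, 95% interval from -0.15 to 0.33, adjusted p = 0.893), so a doubling or a halving lies outside the interval. That interval overlaps the one of Acot2, and the difference between both genes was not tested. Acot1 had 0.01 within slide row 1 and 0.24 within slide row 2, and 0.15 without LDL replicate 1. Slide row 2 held only replicate 3 of each group, so slide position and replicate cannot be told apart.

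Acot7, which hydrolyses long-chain acyl-CoA in brain, had 2.92, 2.78 and 2.71 with LDL, against 2.65, 2.73 and 2.57 with saline. Only LDL replicate 3 and saline replicate 2 broke the separation. The log2 fold change was 0.15 (SE 0.10, 95% interval from -0.09 to 0.40, adjusted p = 0.810), and 0.10 without LDL replicate 1. Acot11, a thioesterase with a lipid-binding START domain that is induced by cold in mouse brown fat, had -0.27, -0.60 and -0.62 with LDL, against -0.14, -0.72 and -0.75 with saline. In both groups replicate 1 was the highest, and the groups overlapped throughout. The log2 fold change of 0.04 (95% interval from -0.42 to 0.50) was negative without LDL replicate 1 (-0.07), saline replicate 2 (-0.05) or saline replicate 3 (-0.07), and was 0.24 without saline replicate 1.

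**Figure D2:**
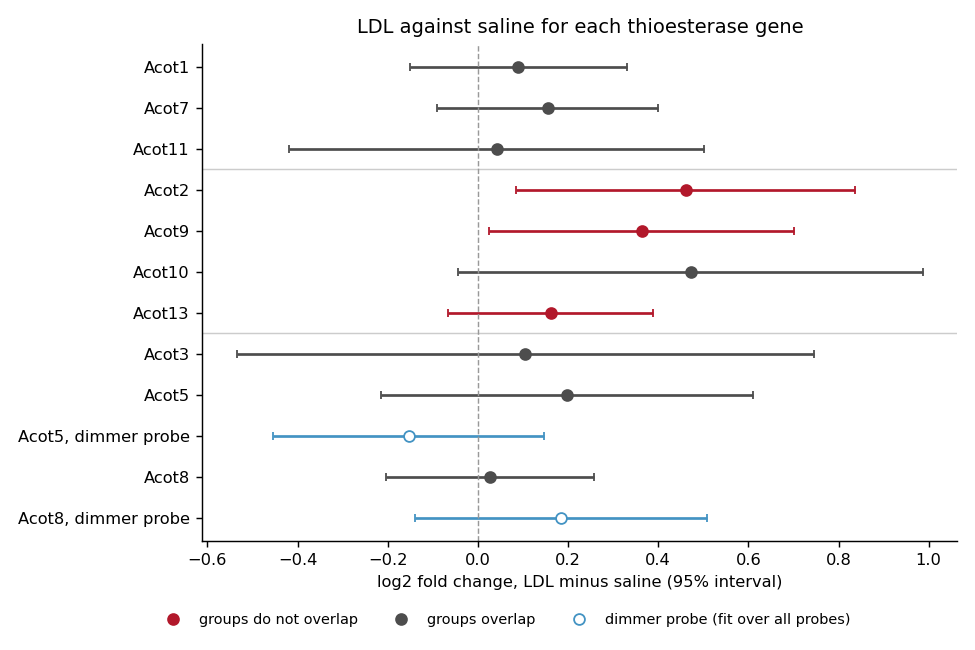
Log2 fold change, LDL minus saline (horizontal axis), of each thioesterase gene with its 95% interval from limma, from cytosolic genes at the top through mitochondrial to peroxisomal genes at the bottom. Red marks genes whose groups did not overlap, grey the others, and open blue circles the dimmer probes of Acot5 and Acot8; the intervals of Acot2 and Acot9 alone lie above 0, before adjustment for the number of features.

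The peroxisomal members gave values that depended on the probe or on single arrays. Acot3, a long-chain thioesterase, had -1.32, -1.21 and -1.37 with LDL, against -0.85, -2.0 and -1.37 with saline. The LDL arrays agreed closely and fell inside the saline range, which spanned more than any other member's. The log2 fold change of 0.11 (SE 0.27, 95% interval from -0.54 to 0.75, adjusted p = 0.959) became 0.38 without saline replicate 1 and -0.19 without saline replicate 2. A second Acot3 probe was well above background on none of the 6 arrays, with processed signals of 5.10 to 7.30 on LDL arrays and 4.45 to 6.82 on saline arrays, and the first probe had 364 to 384 and 183 to 423. Probes for 1 gene thus differed in whether they detected anything at all. Without probe sequences, it is not known how far the probes of Acot1, Acot2, Acot3 and Acot5 measure each other's transcripts.

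Acot5, which prefers medium-chain acyl-CoA, had 0.98, 1.14 and 1.22 with LDL, against 0.56, 1.17 and 1.02 with saline. Saline replicate 1 stood apart below the other arrays, and without it the log2 fold change of 0.20 (SE 0.17, 95% interval from -0.21 to 0.61, adjusted p = 0.851) was 0.02. Its dimmer probe had -0.59, -0.54 and -0.56 with LDL, against -0.23, -0.63 and -0.38 with saline, a log2 fold change of -0.15 (95% interval from -0.45 to 0.15). The 2 Acot5 probes therefore differed in sign, and on the dimmer one saline replicate 1 was the highest array, not the lowest.

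Acot8, which acts on acyl-CoA of many chain lengths and on bile acid CoA, had 1.06, 1.11 and 1.08 with LDL, against 1.04, 1.16 and 0.96 with saline. The LDL values lay within the saline range. The log2 fold change was 0.03 (SE 0.10, 95% interval from -0.20 to 0.26, adjusted p = 0.972), 0.08 without saline replicate 2 and -0.02 without saline replicate 3. The dimmer Acot8 probe had a log2 fold change of 0.18 (95% interval from -0.14 to 0.51), also with overlapping groups.

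By place, the 4 mitochondrial members had a median log2 fold change of 0.41, the 3 cytosolic members 0.09 and the 3 peroxisomal members 0.11. The groups of genes are small and their difference was not tested. Without LDL replicate 1 the mitochondrial median was 0.27, and without LDL replicate 2 the peroxisomal was 0.06. Without saline replicate 1 the medians were 0.30 for mitochondrial, 0.16 for cytosolic and 0.02 for peroxisomal members. Within slide row 1 they were 0.46, 0.01 and 0.16 in the same order, and within slide row 2 0.29, 0.14 and 0.12. Within slide row 1, with 2 arrays of each treatment, the median of the 10 members was 0.16 with 8 positive, against 44.1% of all features. Within slide row 2, with 1 array of each (replicate 3), it was 0.21 with 9 positive, against 48.1% of all features. The median of all 10 stayed between 0.13 and 0.20 with any 1 array left out.

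**Figure D3:**
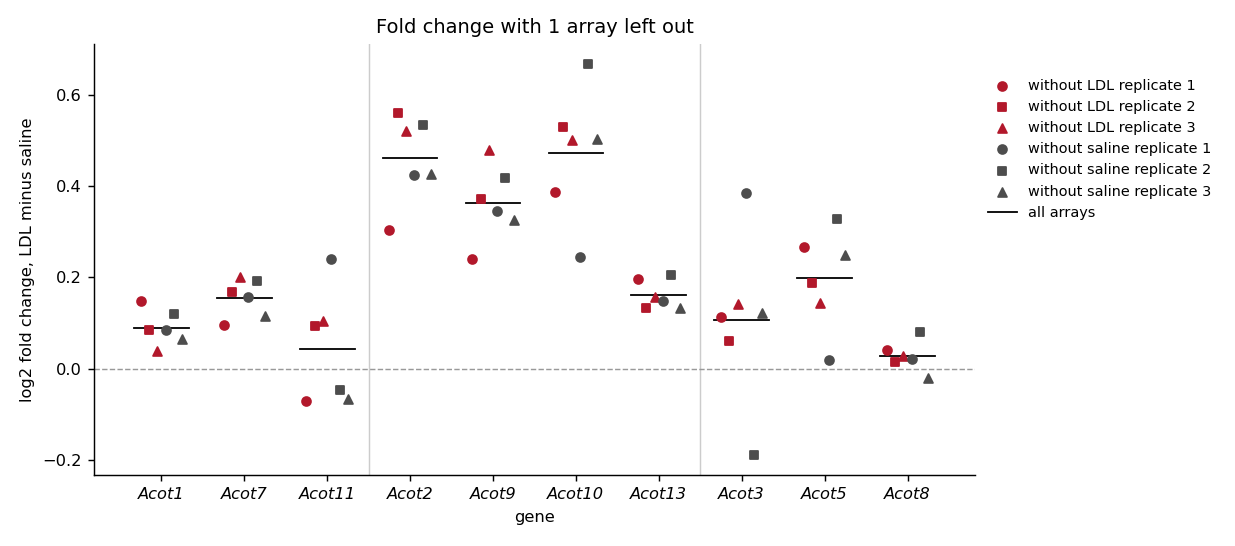
Log2 fold change, LDL minus saline (vertical axis), of each thioesterase gene (horizontal axis) with all 6 arrays (black bar) and with 1 array left out (red for an LDL array, grey for a saline array, shape for its replicate number). Acot1, Acot2, Acot5, Acot7, Acot9, Acot10 and Acot13 stayed above 0 in each case, while Acot3, Acot8 and Acot11 had values on both sides of 0.

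The members did not vary as 1 block across the arrays. Over the 6 arrays, which include the treatment difference, Acot7 and Acot9 had a Pearson r of 0.98, Acot2 and Acot9 0.94, and Acot2 and Acot7 0.94. The neighbours Acot1 and Acot2 had 0.16, the paralogs Acot9 and Acot10 0.74, and Acot3 and Acot5 -0.71. The mean profile of Acot1, Acot2, Acot3 and Acot5 was 0.12, 0.09 and 0.11 on LDL arrays 1 to 3, against -0.08, -0.14 and -0.10 on saline arrays. These are log2 deviations from the mean of each gene. The profile is thus nearly a step between the treatments, though its members did not all vary together. A high r with it marks genes that separate LDL from saline, not genes that follow single members. The gene most like this profile was Slc6a8, the creatine transporter, with r = 0.996 over 6 arrays. Slc6a8 was followed by Chst12, Sat1, Ubxn2a and Slc25a42, the mitochondrial carrier of coenzyme A, with r between 0.989 and 0.992. A high r does not mean a large difference, since Slc6a8 had a log2 fold change of 0.09. Adjusted p in limma ran from 0.166 for Slc25a42 to 0.857 for Slc6a8 among the genes named. Of 14922 named genes compared, 181 had r above 0.9, and with so few arrays such values are a description only.

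Genes that make, bind or burn acyl-CoA are given for context. Sterol synthesis genes, which respond to LDL cholesterol, fell in 10 of 15 cases at an adjusted p of 0.05, against 0.107% of all features. Fdps, which makes farnesyl diphosphate, had -1.96 (adjusted p = 0.00496), and Hmgcs1 -2.15 (adjusted p = 0.0106). All 15 were negative whichever array was left out, with medians from -1.94 to -1.75, but the calls were fewer, with 0 of 15 passing without LDL replicate 2, LDL replicate 3 or saline replicate 3, and 1 without saline replicate 2. With the replicate number as a block 1 of 15 passed. Of 21 genes of mitochondrial beta-oxidation, 0 passed in either direction, and the median log2 fold change was 0.19. Of these, 19 were positive, against 43.8% of all features. Cpt1a, which admits long-chain fatty acids to mitochondria, had 2.35, 2.26 and 2.30 with LDL, against 0.82, 1.54 and 1.41 with saline, without overlap (log2 fold change 1.05, adjusted p = 0.230). Acadl, a long-chain acyl-CoA dehydrogenase, had 0.59 (adjusted p = 0.247) and Acaa2, the thiolase of the last step, 0.67 (adjusted p = 0.497).

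Acyl-CoA synthetases, which work against the thioesterases, had a median of -0.00235 over 16 genes, with 0 passing. Of these, 8 were positive and 8 negative, where 43.8% of all features were positive. Their smallest p belonged to Acss1 at -0.56 (adjusted p = 0.456), Acsl3 at -0.59 (adjusted p = 0.491) and Acsl4 at -0.48 (adjusted p = 0.664). The 20 tested genes of peroxisomal oxidation and transport had a median of 0.05 with 0 passing, led by Abcd4 at 0.33 (adjusted p = 0.642), Acaa1b at 0.26 (adjusted p = 0.702) and Hacl1 at -0.22 (adjusted p = 0.704). Among PPAR receptors and classic targets, 0 of 16 passed, with a median of 0.13 that includes Cpt1a, Cpt1b at 0.34 (adjusted p = 0.546) and Cidec at -0.38 (adjusted p = 0.554), and 9 of the 25 listed, among them Pdk4 and Fgf21, did not meet the background filter.

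Thioesterases outside the Acot members were measured in 6 of 12 cases, with 0 passing and a median of 0.11. Ppt1, the lysosomal palmitoyl-protein thioesterase, had 0.34 (adjusted p = 0.719), Lypla1 0.13 (adjusted p = 0.823) and Them4 0.10 (adjusted p = 0.851). Of 8 coenzyme A synthesis and transport genes 0 passed, with a median of 0.03. Slc25a42 had 0.63 (adjusted p = 0.166), Pank1 -0.36 (adjusted p = 0.714) and Pank3 -0.37 (adjusted p = 0.735).

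**Figure D4:**
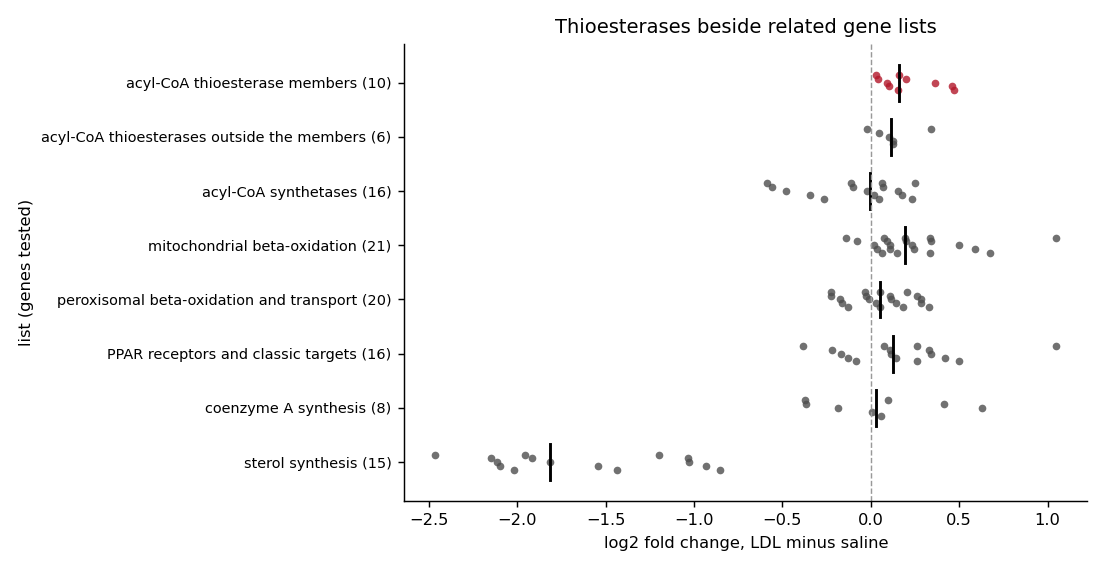
Log2 fold change, LDL minus saline (horizontal axis), of each tested gene (points, spread vertically for visibility) in the thioesterase family (red) and in 7 related lists (grey), with the number tested in brackets and the median as a black bar. The family median of 0.16 lies between those of PPAR receptors and targets at 0.13 and mitochondrial beta-oxidation at 0.19, and sterol synthesis genes lie apart at a median of -1.81.

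The arrays carried the markers of the labelled cell type, since 9 of 10 precursor markers, among them Nes, Sox2 and Mki67, were well above background on all 6. Of the markers of other cell types, Dcx, P2ry12, Cdh5, Pdgfrb and Rgs5 were well above background on none, but 23 of 30 were on all 6, among them Itgam, Mog and Kdr. The summed linear signal of 6 astrocyte markers, all well above background on every array, was 3.11 to 3.45 on LDL arrays and 3.52 to 4.01 on saline arrays, and that of 6 vascular markers, of which 2 were so, 13.4 to 14.0 and 14.1 to 14.7. The summed neuronal, oligodendrocyte and microglial markers overlapped between the groups. The astrocyte and vascular sums were lower with LDL without overlap, as were 8.77% of all features taken singly. Most of the vascular sum came from Kdr, at 3.70 to 3.77 on LDL arrays and 3.78 to 3.84 on saline arrays (log2 relative signal). Its log2 fold change was -0.07 (adjusted p = 0.905 in limma). The part of these sums in the thioesterase values was not tested. Of the 6 astrocyte markers 5 were negative, but Gfap, an astrocyte filament protein also made by neural stem cells, had -2.25 to -2.01 on LDL arrays and -3.63 to -3.26 on saline arrays (log2 relative signal), with a log2 fold change of 1.35 (adjusted p = 0.0225). Without any single LDL array, saline replicate 2 or saline replicate 3, no feature passed as higher, Gfap included. Between 59.7% and 65.8% of probes on LDL arrays and between 55.9% and 66.9% on saline arrays were well above background. Precision is limited by how few arrays there are.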

How the data were processed

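Gene expression was measured on 6 Agilent 1-colour arrays on 1 slide, from 100 ng of total RNA each, per the labels' protocols. The deposited intensity values were background-subtracted and detrended within each array by Agilent Feature Extraction 10.7.3.1, per the file headers. The authors also deposited log2 values aligned between arrays, by a method not given in the sources used here. The submitters' processing notes list R 3.4.4 and limma 3.34.9. These columns had medians of 6.67 to 6.69 and r of 0.987 to 0.993 with the scanner values across probes, and served as an alternative.

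The values analysed were log2 processed signals less the 75th percentile of each array. Spots of controls and spots with outlier flags were left out, except where all spots of a probe on an array were flagged (73 tested probes, no thioesterase). A probe was tested if well above background on all 3 arrays of at least 1 group (32993 of 55681), and the brightest stood for a gene. Names came from RefSeq accessions (28331 probes matched, GRCm38.p6), as the files hold no gene name column. The LDL and saline arrays were compared in limma 3.58.1 (R 4.3.3), two-sided and without covariates, with Benjamini-Hochberg adjustment over 24225 features. The fit was tested on simulated data. Dimmer probes that met the filter were fitted over all 32993 probes tested. Plots used matplotlib 3.10.9.

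Alternatives changed the normalization, the filter on dim probes, the rule for several probes of a gene, the blocks and variances, and left out each array in turn. Normexp used median spot signals where means had been planned, as the files used hold none. The members and gene lists were chosen with earlier results of these data known. All members were named, and up to 3 genes of each list by smallest p.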

Additional observations from a re-analysis of the deposited data

How the results depend on the processing

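Over 20 alternatives, 0 of the 10 thioesterase genes passed an adjusted p of 0.05 in limma wherever a test was possible, and the family median kept its sign, from 0.13 to 0.21. Of 200 member values, 9 turned negative. Acot8 had -0.00412 with normexp and quantile normalization (on median spot signals), -0.0200 within slide row 1 and -0.0198 without saline replicate 3, and ran from -0.0198 to 0.0799 with 1 array left out. Acot11 had -0.00433 within slide row 1, and ran from -0.0709 to 0.24 with 1 array left out. Acot3 had -0.00062 within slide row 2, and ran from -0.19 to 0.38 with 1 array left out. Against 3 features higher and 26 lower, scaling by the median called 8 and 22, normexp 8 and 34, the authors' values 7 and 27, and quantile normalization alone 5 higher. Keeping only probes well above background on all arrays called 5 higher, and trended robust variances 16. No feature was higher without a background filter (1773 of either direction had an unadjusted p under 0.05), in slide row 1 (862), or when slide row was blocked. Leaving out flagged probes, an alternative chosen after seeing the data, called 5 higher. Lower features numbered 0 without the background filter, 14 when slide row was blocked and 0 in slide row 1. With 1 array left out, 0 to 6 were higher and 0 to 23 lower: 0 higher without each LDL array, saline replicate 2 or saline replicate 3, and 0 lower without LDL replicate 2, LDL replicate 3 or saline replicate 3 (991, 1375 and 1554 at an unadjusted p under 0.05). Fewer arrays leave fewer degrees of freedom, and otherwise the cause was not tested. A replicate block called 2 higher and 1 lower, and no member passed (smallest adjusted p = 0.593). Deviations of same-numbered arrays correlated at 0.21, -0.04 and 0.18 across features, and those of differently numbered arrays at -0.23 to 0.08. These values do not settle whether same-numbered arrays are pairs. The labels do not say that they share a passage, so the main fit was unpaired. Median scaling gave 53.2% of all features a positive value, against 43.8%, and a family median of 0.20. Signal over background limits Acot4, Acot6, Acot12 and the second Acot3 probe, each not well above background on 1 or more arrays. The sterol synthesis calls, 10 of 15, were 0 without the background filter and in slide row 1.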
